A study of Homo sapiens with 6 samples.

Results

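Epithelial-mesenchymal transition (EMT) is the programme by which epithelial cells loosen their junctions and polarity and take on a motile, matrix-producing state. It is driven by the SNAI, ZEB and TWIST transcription factors, which repress epithelial genes such as E-cadherin. OVOL2 and GRHL2 are transcription factors that hold cells in the epithelial state, while the intermediate filament protein vimentin (VIM) and the matrix glycoprotein fibronectin (FN1) are widely used as mesenchymal markers. In ovarian carcinoma these genes are studied for their part in peritoneal spread. The 10 genes SNAI1, SNAI2, ZEB1, ZEB2, TWIST1, TWIST2, OVOL2, GRHL2, VIM and FN1 were taken by their symbol from a table of 19973 genes, and each symbol matched a single row.

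mRNA was sequenced in OVCAR3 cells, an established human ovarian cancer line, after transfection with a plasmid carrying either a control short hairpin RNA (shNC, genotype given as WT) or a hairpin against NUF2 (shNUF2, given as NUF2 knockdown), followed by puromycin selection of stable cells. NUF2 is a kinetochore protein that attaches chromosomes to the spindle, and the question of the comparison was which genes differ after its knockdown. Each group had 3 libraries. Whether these came from separate transfections or cultures, and whether each stable line was a clone or a pool, is not given in the sources used here, so the p-values measure only the spread between these libraries, which may be technical. Time after selection is likewise not given.

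The total counts ran from 13057534 to 16995452 reads per library. NUF2 itself had 903, 1096 and 1092 reads across the shNC replicates, against 281, 290 and 384 with shNUF2, and fell by 1.51 on the log2 scale (SE 0.08, edgeR adjusted p = 2.17e-15). Between 14582 and 14691 genes had a read in the shNC libraries and between 15435 and 15536 in the shNUF2 libraries, so that more genes were detected with shNUF2 although the median total was 13797326 against 15703556 reads. FOLR1, MSLN, MUC16, KRT7, KRT8 and KRT18, genes of ovarian and other simple epithelia, were well detected in every library. EMX2 was at 0 in all libraries, and WT1, SOX17 and KRT19 did not exceed 14 reads in any library, so only part of the marker genes of ovarian cancer cells was detected in libraries labelled as such. Among genes that mark epithelial cells, ESRP1, RAB25 and GRHL2 had at most 4 reads in any library and CDH1 at most 33. The identity of the line was not tested here beyond these markers. Counts come from bulk RNA, in which a larger share of expressing cells and more RNA per cell cannot be told apart.

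Of the 10 genes, 8 had enough reads to be tested, and 7 of these were significantly upregulated with shNUF2, namely VIM, FN1, SNAI1, SNAI2, ZEB1, ZEB2 and TWIST1. TWIST2 did not pass the test, and OVOL2 and GRHL2 were close to the limit of detection in both groups. None of the 8 was lower by edgeR's quasi-likelihood test, by its unadjusted p or by DESeq2. An adjusted p under 0.05 was reached upwards by 33.9% and downwards by 33.8% of the 12874 genes tested, so that a change as such was common in this comparison. The median log2 fold change of the 8 genes was 1.19, against -0.01 over all genes tested. A total of 6 passed the additional threshold of a log2 fold change above 1 with an unadjusted p under 0.05, which 9.41% of all tested genes passed upwards and 4.16%, with a change below -1, downwards. This number was 3 with limma on log2(FPKM + 1), and 5 with limma on log2(FPKM + 0.1), with library totals only, without shNC replicate 3 or without shNUF2 replicate 3. In 7 of the 8 genes all shNUF2 values were above all shNC values, a pattern seen in 35.2% of all genes tested.

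**Figure D1:**
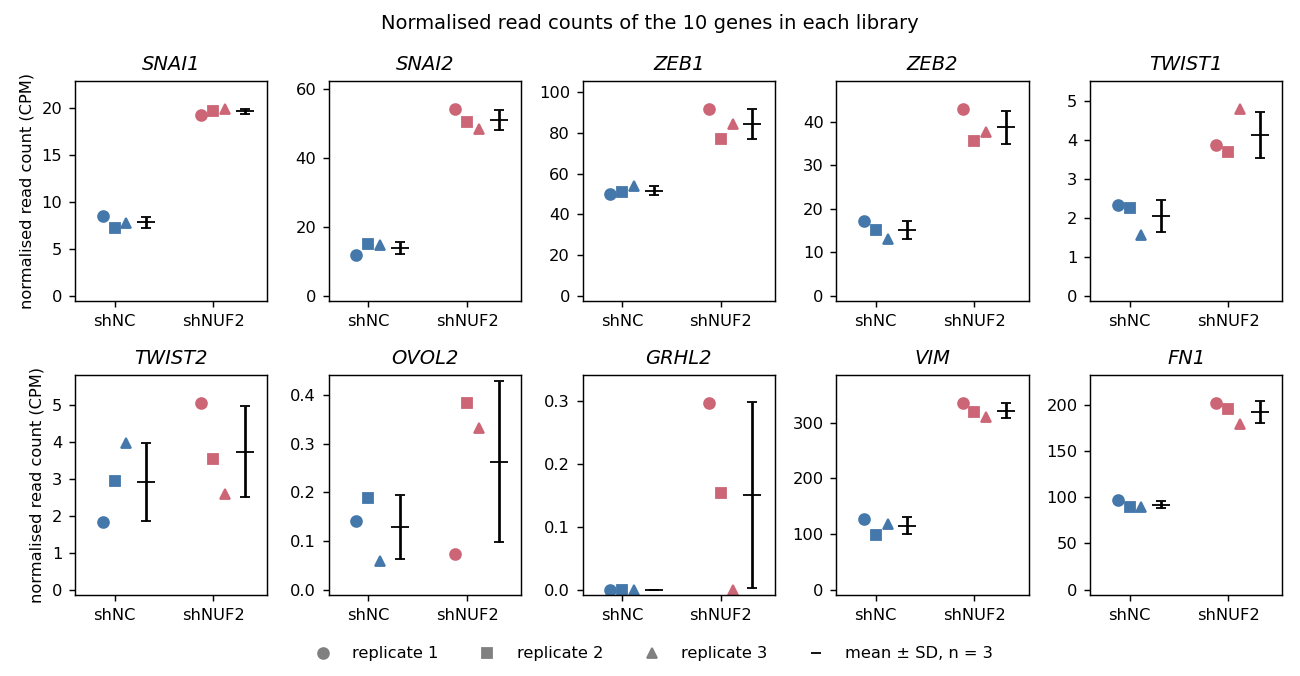
Normalised read counts, in CPM (reads scaled to a library of fixed size, linear axis), of the 10 genes in the 3 shNC and the 3 shNUF2 libraries, with marker shapes for replicate numbers and the mean ± SD (n = 3) beside the points. The groups are apart for SNAI1, SNAI2, ZEB1, ZEB2, TWIST1, VIM and FN1 and overlap for TWIST2, OVOL2 and GRHL2.

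SNAI1 (ENSG00000124216; chromosome 20, 49982980 to 49988886, plus strand) encodes Snail, a zinc finger repressor that binds E-boxes in the E-cadherin promoter. It had 120, 116 and 134 reads across the shNC replicates, against 260, 256 and 299 with shNUF2. All shNUF2 libraries were above all shNC libraries, and the spread within each group was small. The normalised level was 7.83 ± 0.592 CPM with shNC and 19.6 ± 0.303 CPM with shNUF2 (SD, n = 3), a 2.51-fold increase (log2 fold change 1.33, SE 0.12, edgeR adjusted p = 1.95e-10).

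SNAI2 (ENSG00000019549; chromosome 8, 48917598 to 48921740, minus strand) encodes Slug, the close relative of Snail. It had 168, 241 and 252 reads across the shNC replicates, against 730, 656 and 727 with shNUF2. The lowest shNUF2 library had more than the highest shNC library by a wide margin. Its level was 13.8 ± 1.77 CPM with shNC and 51.0 ± 2.94 CPM with shNUF2 (SD, n = 3), and the 3.66-fold increase was the largest among the 8 tested genes (log2 fold change 1.87, SE 0.09, edgeR adjusted p = 9.08e-16). Ordered by log2 fold change from the highest, SNAI2 stood at place 425 and SNAI1 at place 771 of the 12874 genes tested.

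The relation between both SNAI genes was read from FPKM values, which divide reads by gene length and library total. The SNAI2 level was 0.728, 1.08 and 0.977 times that of SNAI1 in the shNC libraries. In the shNUF2 libraries the ratio was 1.46, 1.33 and 1.26. The ratios did not overlap between the groups, and the exact permutation test gave p = 0.10 (two-sided, 3 against 3), the smallest value this test can give here, or 0.133 after adjustment over the 4 ratios compared. These 4 ratios were chosen after the values of the genes were known.

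ZEB1 (ENSG00000148516; chromosome 10, 31318495 to 31529814, plus strand) encodes a zinc finger and homeodomain repressor that recruits CtBP corepressors and forms a double-negative loop with the miR-200 family. It had 709, 811 and 930 reads across the shNC replicates, against 1236, 1002 and 1272 with shNUF2. The shNUF2 libraries were all higher, with replicate 2 closest to the control group. Its level was 51.6 ± 2.21 CPM with shNC and 84.5 ± 7.3 CPM with shNUF2 (SD, n = 3). The 1.64-fold increase passed the test but not the fold threshold (log2 fold change 0.71, SE 0.06, edgeR adjusted p = 1.95e-10).

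Each RefSeq start site window in GRCh38.p14 reached from 250 bases before to 50 bases after a start. Windows of 5 of the 10 genes were compared (ZEB1, ZEB2, TWIST2, VIM and FN1). They were searched on both strands for the E-box CACCTG, read as CAGGTG on the other strand, through which SNAI and ZEB factors bind DNA, for the GC box GGGCGG, read as CCGCCC on the other strand, for the AP-1 site TGANTCA and for the TATA box TATAAA. The E-box was present in 20.6%, the GC box in 45.0%, the AP-1 site in 7.71% and the TATA box in 11.5% of all 35116 windows. Among the 11 windows of the 5 genes only ZEB1 windows held the E-box, and none held the AP-1 site or the TATA box. SNAI1, SNAI2, TWIST1, OVOL2 and GRHL2 had no window in this comparison, so whether theirs hold an E-box was not tested. The ZEB1 window whose last bases lie in the most annotated transcripts (8) is printed here because it holds E-boxes of the kind its own product binds, with E-box and GC box letters in capitals (chr10:31318966-31319265, plus strand).
ZEB1 window: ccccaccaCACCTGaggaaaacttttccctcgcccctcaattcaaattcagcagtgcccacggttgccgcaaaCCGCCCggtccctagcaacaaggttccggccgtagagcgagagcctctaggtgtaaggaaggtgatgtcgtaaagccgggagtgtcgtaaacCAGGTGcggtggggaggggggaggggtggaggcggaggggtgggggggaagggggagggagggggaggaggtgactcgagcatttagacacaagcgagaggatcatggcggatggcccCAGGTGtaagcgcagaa
The E-boxes began at positions -242, -85 and 34 and the GC box at -177, counted along the gene's strand. The start site is the first positive position, and there is no position 0. A match describes the letters only, and no binding was measured.

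ZEB2 (ENSG00000169554; chromosome 2, 144364364 to 144521057, minus strand), the paralog of ZEB1, had 245, 241 and 224 reads across the shNC replicates, against 578, 461 and 567 with shNUF2. Every shNUF2 library had more reads than any shNC library. Its level was 15.1 ± 2.11 CPM with shNC and 38.7 ± 3.8 CPM with shNUF2 (SD, n = 3), a 2.57-fold increase (log2 fold change 1.36, SE 0.10, edgeR adjusted p = 5.75e-12). On the log2(FPKM + 1) scale, where the low FPKM of this long gene is compressed, the difference was 0.63.

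By FPKM, ZEB1 was 8.74, 10.2 and 12.5 times as high as ZEB2 with shNC and 6.46, 6.56 and 6.77 times as high with shNUF2. The ratio was lower in all shNUF2 libraries, by 0.65 on the log2 scale (exact permutation p = 0.10, two-sided, 3 against 3, adjusted 0.133). The antisense genes ZEB1-AS1 and ZEB2-AS1 overlap 366 and 1299 exonic bases of ZEB1 and ZEB2. They are not listed in the table, and the strand setting of the counting is not given in the sources used here, so reads of these antisense genes could have been added to the counts if strand was not used. A pseudogene named after ZEB2 and another named after SNAI1 are annotated, and how reads matching both copies were counted is not given in the sources used here.

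TWIST1 (ENSG00000122691; chromosome 7, 19020991 to 19117636, minus strand) encodes a basic helix-loop-helix factor of mesoderm and neural crest that acts as a dimer with E proteins. It had 33, 36 and 27 reads across the shNC replicates, against 52, 48 and 72 with shNUF2. The groups did not overlap, and replicate 3 was the lowest of the controls and the highest with shNUF2. Its level was 2.05 ± 0.416 CPM with shNC and 4.11 ± 0.59 CPM with shNUF2 (SD, n = 3), a 2.02-fold increase (log2 fold change 1.02, SE 0.26, edgeR adjusted p = 0.00102). The increase passed the fold threshold narrowly. It was 0.84 without shNC replicate 3 and 0.89 without shNUF2 replicate 3, and 0.57 on the log2(FPKM + 1) scale. The antisense gene AC003986.2 overlaps 141 exonic bases of TWIST1, with the same limit as for ZEB1.

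TWIST2 (ENSG00000233608; chromosome 2, 238848032 to 238910534, plus strand) encodes the close relative of TWIST1. It had 26, 47 and 68 reads across the shNC replicates, against 68, 46 and 39 with shNUF2. High and low libraries occurred in both groups, which overlapped. The log2 fold change was 0.33 (SE 0.28, edgeR adjusted p = 0.304), with an interval of 2 SE from -0.23 to 0.90, so that no change and an increase of up to 0.90 were both within the interval. Without shNUF2 replicate 1 the difference was 0.05. The TWIST1 to TWIST2 ratio of FPKM ran from 0.372 to 1.19 with shNC and from 0.716 to 1.73 with shNUF2, overlapping between the groups (difference 0.64 on the log2 scale, exact permutation p = 0.50, two-sided, 3 against 3). As none of the 4 ratios could reach 0.05 by this test with 3 against 3 libraries, these p-values do not set them apart.

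VIM (ENSG00000026025; chromosome 10, 17228241 to 17237593, plus strand) had 1816, 1562 and 2036 reads across the shNC replicates, against 4529, 4152 and 4668 with shNUF2. The lowest shNUF2 library had more reads than any control by far more than the spread within the groups. The level was 115 ± 15.3 CPM with shNC and 322 ± 13 CPM with shNUF2 (SD, n = 3), a 2.81-fold increase (log2 fold change 1.49, SE 0.06, edgeR adjusted p = 3.03e-17). VIM-AS1 and AL133415.1 lie on the opposite strand and overlap 641 and 619 exonic bases of VIM, with the same limit as for ZEB1. The VIM window is printed for comparison with FN1, with the single GC box at position -46 in capitals (chr10:17227991-17228290, plus strand, 48.0% G and C).
VIM window: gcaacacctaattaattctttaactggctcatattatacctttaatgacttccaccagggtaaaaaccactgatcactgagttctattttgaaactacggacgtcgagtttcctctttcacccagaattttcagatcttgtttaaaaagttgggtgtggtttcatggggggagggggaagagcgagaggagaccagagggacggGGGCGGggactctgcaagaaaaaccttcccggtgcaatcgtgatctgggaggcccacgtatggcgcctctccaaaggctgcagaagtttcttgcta
The start site of this window is the start of VIM in the deposited table. The last bases of the VIM window lie in 1 annotated transcript, against 11 for the FN1 window.

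FN1 (ENSG00000115414; chromosome 2, 215360440 to 215436073, minus strand) had 1379, 1434 and 1541 reads across the shNC replicates, against 2727, 2536 and 2699 with shNUF2. The groups were clearly apart. The level was 92.1 ± 4.24 CPM with shNC and 192 ± 11.7 CPM with shNUF2 (SD, n = 3), a 2.09-fold increase (log2 fold change 1.06, SE 0.05, edgeR adjusted p = 7.65e-16). On the log2(FPKM + 1) scale it was 0.90, below the fold threshold. The FN1 window held GC boxes at -129, -125, -121, -107, -102 and -49, of which neighbours among the first 3 overlap, as do the next pair (chr2:215436019-215436318, minus strand, 76.7% G and C).
FN1 window: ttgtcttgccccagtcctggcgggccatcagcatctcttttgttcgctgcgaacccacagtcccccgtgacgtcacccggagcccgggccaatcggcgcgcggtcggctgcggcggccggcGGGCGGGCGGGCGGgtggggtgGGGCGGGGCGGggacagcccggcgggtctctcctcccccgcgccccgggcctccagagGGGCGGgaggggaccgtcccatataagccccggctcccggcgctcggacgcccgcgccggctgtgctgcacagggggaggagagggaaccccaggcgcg
The median over all windows was 58.7% G and C, above the VIM window and below the FN1 window.

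The VIM to FN1 ratio of FPKM was 4.38, 3.62 and 4.39 with shNC and 5.52, 5.45 and 5.75 with shNUF2. All shNUF2 ratios were higher, with a difference of 0.44 on the log2 scale (exact permutation p = 0.10, two-sided, 3 against 3, adjusted 0.133).

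**Figure D2:**
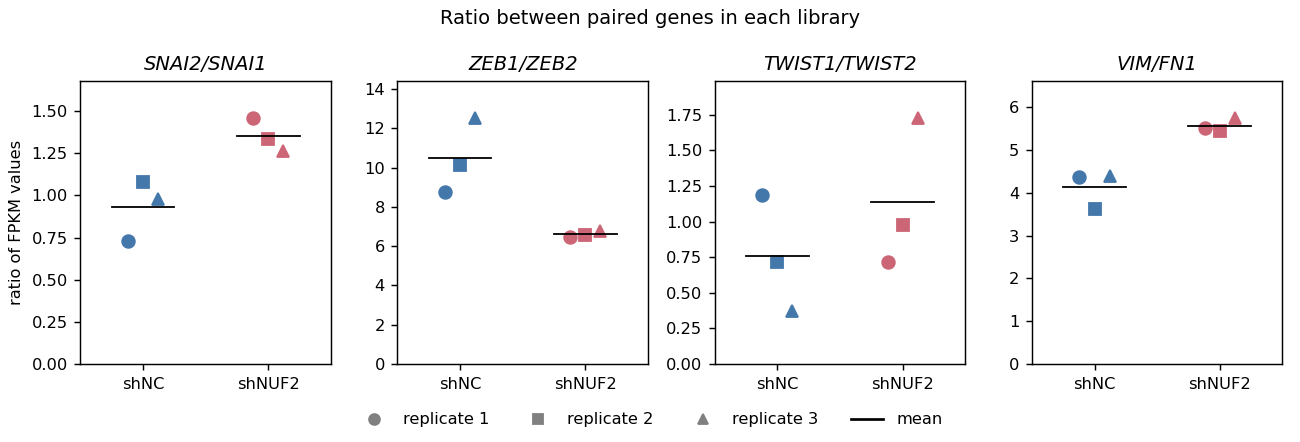
Ratio of FPKM values between paired genes in each library (linear axes from 0), with marker shapes for replicate numbers and a line at the mean of 3 libraries. SNAI2/SNAI1 and VIM/FN1 are higher and ZEB1/ZEB2 is lower in every shNUF2 library, while TWIST1/TWIST2 overlaps between 0.716 and 1.19.

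OVOL2 (ENSG00000125850; chromosome 20, 17956979 to 18059188, minus strand), a zinc finger repressor of ZEB1 and other mesenchymal genes, had 2, 3 and 1 reads across the shNC replicates, against 1, 5 and 5 with shNUF2. GRHL2 (ENSG00000083307; chromosome 8, 101492439 to 101669726, plus strand), a grainyhead factor that activates E-cadherin and claudin genes, had 0 reads in each shNC library and 4, 2 and 0 reads with shNUF2. Both were left out by the filter on low counts, and a count of 0 leaves room for up to 3 reads in a library of this depth. With the filter off, edgeR gave an adjusted p of 0.44 for OVOL2 and 0.0732 for GRHL2. A difference between the groups was therefore not detected for either gene, and with so few reads no fold change is given. OVOL2 shares 59 exonic bases with SNX5 on the same strand.

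In levels per gene length, VIM stood first in both groups at 22.4 ± 2.89 FPKM with shNC and 61.4 ± 2.1 FPKM with shNUF2 (SD, n = 3). With shNC it was followed by ZEB1 at 6.03, FN1 at 5.42, SNAI1 at 4.65 and SNAI2 at 4.27 FPKM, of which SNAI1 and SNAI2 overlapped. TWIST2 at 1.58 and TWIST1 at 1.04 FPKM overlapped, and ZEB2 at 0.586 and OVOL2 at 0.0592 FPKM were lower. With shNUF2 the transcription factor with the highest FPKM was SNAI2 at 15.3 ± 0.787 FPKM, apart from SNAI1 at 11.4 FPKM. SNAI1 and FN1 at 11.02 FPKM overlapped, as did FN1 and ZEB1 at 9.63 FPKM. TWIST1 at 2.03, TWIST2 at 1.96 and ZEB2 at 1.46 FPKM followed, and neighbours in this order overlapped. OVOL2 at 0.119 and GRHL2 at 0.0244 FPKM were last. ZEB1 was thus above SNAI1 and SNAI2 in all control libraries and below both in all shNUF2 libraries.

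The order of levels depends on the length used. The deposited lengths are close to all exons of a gene merged, 26111 bases for ZEB2 and 17216 for FN1, while their longest coding transcripts have 9583 and 8905 bases. Over the longest transcript ZEB2 had 1.60 FPKM with shNC, above TWIST1 at 1.24, and FN1 had 10.5, above ZEB1 at 8.33. With shNUF2, ZEB1 had 13.3 and SNAI1 11.5 FPKM on that scale, which turns their order, while SNAI2 at 20.7 FPKM remained the highest transcription factor. The ratios between genes shift as well. Over the longest transcript the ZEB1 to ZEB2 ratio ran from 4.43 to 6.35 with shNC and from 3.27 to 3.43 with shNUF2. The SNAI2 to SNAI1 ratio ran from 0.972 to 1.44 with shNC and from 1.69 to 1.95 with shNUF2, and the mean of SNAI2 (5.78 FPKM) was above that of SNAI1 (4.70 FPKM) already with shNC. Fold changes between the groups, and log2 differences of a ratio between them, are the same for any length where no constant is added. On the log2(FPKM + 1) scale they depend on the length.

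**Figure D3:**
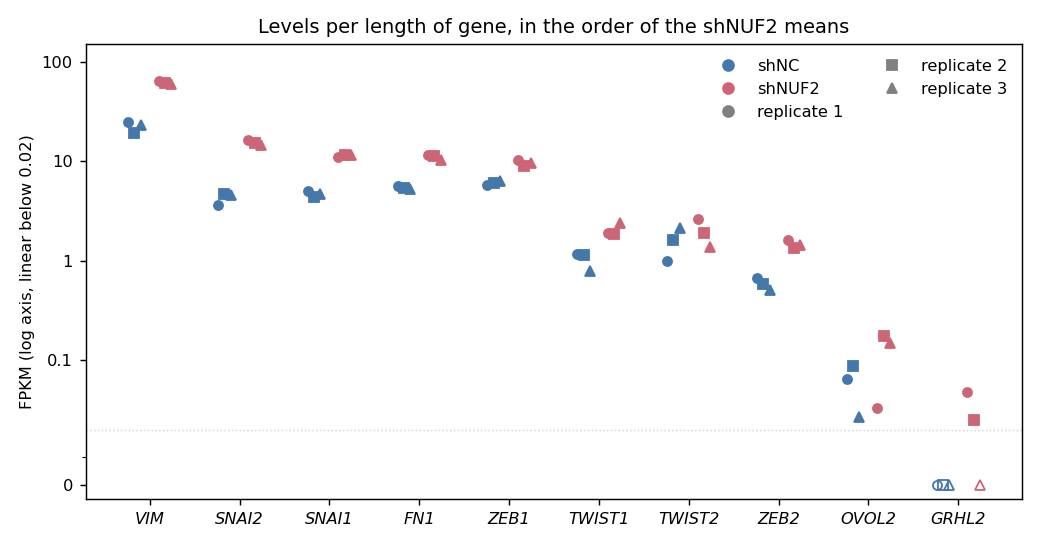
FPKM of the 10 genes in each library (log axis, linear below 0.02, open symbols at 0), ordered by the mean of the 3 shNUF2 libraries. VIM is highest in both groups, SNAI2 rises from 4.27 to 15.3 on average, and OVOL2 and GRHL2 lie below 0.2 in every library.

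The genes that these factors act on, work with or resemble were described by lists of genes chosen from textbook knowledge. Over all 12874 genes tested, 33.9% rose and 33.8% fell at an adjusted p under 0.05, and 9.41% passed the fold threshold upwards. Of 36 mesenchymal genes, 26 were tested, 17 rose (65.4%) and 3 fell (11.5%). Their median log2 fold change was 0.63, and 12 passed the fold threshold upwards. The largest increases at an average of at least 1 log2 CPM were those of the matrix protease MMP9 (log2 fold change 2.31, SE 0.35), the collagen crosslinking enzyme LOX (1.99, SE 0.05) and the collagen VI chain COL6A2 (1.86, SE 0.11), with edgeR adjusted p of 1.88e-06, 9.90e-22 and 2.19e-14. On the log2(FPKM + 1) scale the increase of MMP9 was 1.04. The receptor tyrosine kinase AXL (-0.48), the metabolic enzyme NNMT (-0.44) and the collagen I chain COL1A1 (-0.39) fell, with edgeR adjusted p of 2.31e-10, 1.66e-06 and 1.23e-06. CDH2, which encodes N-cadherin, had 265, 283 and 291 reads across the shNC replicates, against 244, 218 and 267 with shNUF2. Its log2 fold change was -0.015 (SE 0.10, edgeR adjusted p = 0.904), with an interval of 2 SE from -0.22 to 0.19, a range below the increases of VIM and FN1.

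Of 33 epithelial genes, 28 were tested, 12 rose (42.9%), 6 fell (21.4%) and 10 did not pass, with a median log2 fold change of 0.09. CDH1, which encodes E-cadherin, the classical target of SNAI and ZEB repression, was low in both groups with 14, 33 and 19 reads across the shNC replicates, against 14, 9 and 12 with shNUF2. The groups shared the value of 14 reads, and the log2 fold change of -0.72 did not pass (SE 0.40, edgeR adjusted p = 0.118). It was -0.31 without shNC replicate 2. The adhesion molecule EPCAM had 60, 44 and 55 reads across the shNC replicates, against 91, 66 and 68 with shNUF2 and rose (log2 fold change 0.69, SE 0.22, edgeR adjusted p = 0.00834), a call lost without shNUF2 replicate 1 (0.51, adjusted p = 0.078). The increase of EPCAM was 0.41 on the log2(FPKM + 1) scale.

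Other epithelial genes moved in either direction. The membrane protease gene PRSS8 (log2 fold change 1.78, SE 0.16), the desmosomal plakophilin PKP2 (1.14, SE 0.10) and the tight junction gene CLDN4 (1.14, SE 0.07) rose. CLDN7, another claudin gene, fell by 1.06 on the log2 scale (SE 0.09), the polarity gene CRB3 by 0.72 (SE 0.18) and the splicing regulator ESRP2 by 0.59 (SE 0.06). The edgeR adjusted p of these 6 genes ran from 1.22e-13 for CLDN4 to 0.00084 for CRB3. CLDN3 was at 0 in every library, and ESRP1 and RAB25 did not exceed 3 reads, so several epithelial genes besides GRHL2 were absent or nearly so already with shNC.

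Among 14 transcription factors related to the SNAI, OVOL and GRHL families or also linked to EMT, 9 were tested, 5 rose (55.6%) and 1 fell (11.1%). SOX9 (log2 fold change 1.80, SE 0.26), the grainyhead gene GRHL1 (1.46, SE 0.17) and the Wnt pathway factor LEF1 (0.76, SE 0.24) rose, with edgeR adjusted p of 1.25e-06, 3.82e-08 and 0.0063. On the log2(FPKM + 1) scale these increases were 0.89, 0.64 and 0.29. GRHL1 had 45, 72 and 68 reads across the shNC replicates, against 163, 124 and 159 with shNUF2, in contrast to its relative GRHL2 with at most 4 reads. The forkhead gene FOXC1 fell by 0.39 on the log2 scale (SE 0.07, edgeR adjusted p = 2.65e-05).

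Of the 7 TWIST partners, which are E proteins and the ID proteins that sequester them, 6 were tested. Of these, 2 rose and 2 fell (33.3% each), close to the 33.9% and 33.8% over all genes tested. The E protein gene TCF12 had 1520, 1716 and 1842 reads across the shNC replicates, against 636, 598 and 754 with shNUF2, a decrease opposite in direction to TWIST1, its dimer partner (log2 fold change -1.16, SE 0.06, edgeR adjusted p = 3.90e-16). ID3 fell by 0.75 on the log2 scale (SE 0.06, edgeR adjusted p = 4.90e-12). TCF3 rose by 0.28 (SE 0.05) and ID2 by 0.56 (SE 0.20), with edgeR adjusted p of 2.23e-05 and 0.0172. The call for ID2 was lost without shNC replicate 2 (0.46), without shNC replicate 3 (0.50) and without shNUF2 replicate 2 (0.44), which left 1 partner higher. The increase of ID2 was 0.36 on the log2(FPKM + 1) scale.

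All 20 genes for corepressors of the SNAI and ZEB factors and for their protein turnover were tested. Of these, 7 rose (35.0%) and 6 fell (30.0%), close to the 33.9% and 33.8% over all genes tested. The median log2 fold change was 0.03. The polycomb subunit EED (log2 fold change 0.73, SE 0.05), the kinase GSK3B that marks Snail for degradation (0.59, SE 0.05) and the arginine methyltransferase PRMT5 (0.50, SE 0.09) rose. The LIM protein AJUBA, a Snail corepressor, fell by 1.05 on the log2 scale (SE 0.05), the ZEB corepressor CTBP1 by 0.54 (SE 0.07) and the polycomb subunit SUZ12 by 0.49 (SE 0.05). The edgeR adjusted p of these 6 genes ran from 1.17e-15 for AJUBA to 3.86e-05 for PRMT5. EED and SUZ12 are subunits of the same complex and moved in opposite directions.

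Among 11 fibronectin receptors and matrix partners, 8 were tested, 6 rose (75.0%) and 1 fell (12.5%), with a median log2 fold change of 0.95. The integrin subunit gene ITGB3 had 59, 33 and 47 reads across the shNC replicates, against 255, 254 and 215 with shNUF2 (log2 fold change 2.57, SE 0.19, edgeR adjusted p = 2.90e-12), which was 1.34 on the log2(FPKM + 1) scale. The heparan sulphate proteoglycan SDC4 (1.49, SE 0.05) and ITGA5, the alpha subunit of the classical fibronectin receptor (1.12, SE 0.06), rose as well, with edgeR adjusted p of 2.81e-19 and 2.35e-15. FBLN1, a matrix protein that binds fibronectin, fell by 0.53 on the log2 scale (SE 0.04, edgeR adjusted p = 3.13e-11).

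Of 14 relatives and partners of vimentin, 10 were tested, 7 rose and 1 fell, with a median log2 fold change of 0.59. The intermediate filament genes NES (log2 fold change 1.44, SE 0.09), INA (0.93, SE 0.09) and DES (0.82, SE 0.26) had the largest increases, with edgeR adjusted p of 1.20e-13, 1.55e-09 and 0.00738. The increase of DES was 0.41 on the log2(FPKM + 1) scale. The nuclear lamin gene LMNB1 fell by 0.57 (SE 0.06, edgeR adjusted p = 2.19e-09). SYNM, the gene of the vimentin partner synemin, had a log2 fold change of -0.16 (edgeR adjusted p = 0.0548) and passed without shNC replicate 1 (-0.21) or without shNUF2 replicate 2 (-0.19), which made 2 genes lower.

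**Figure D4:**
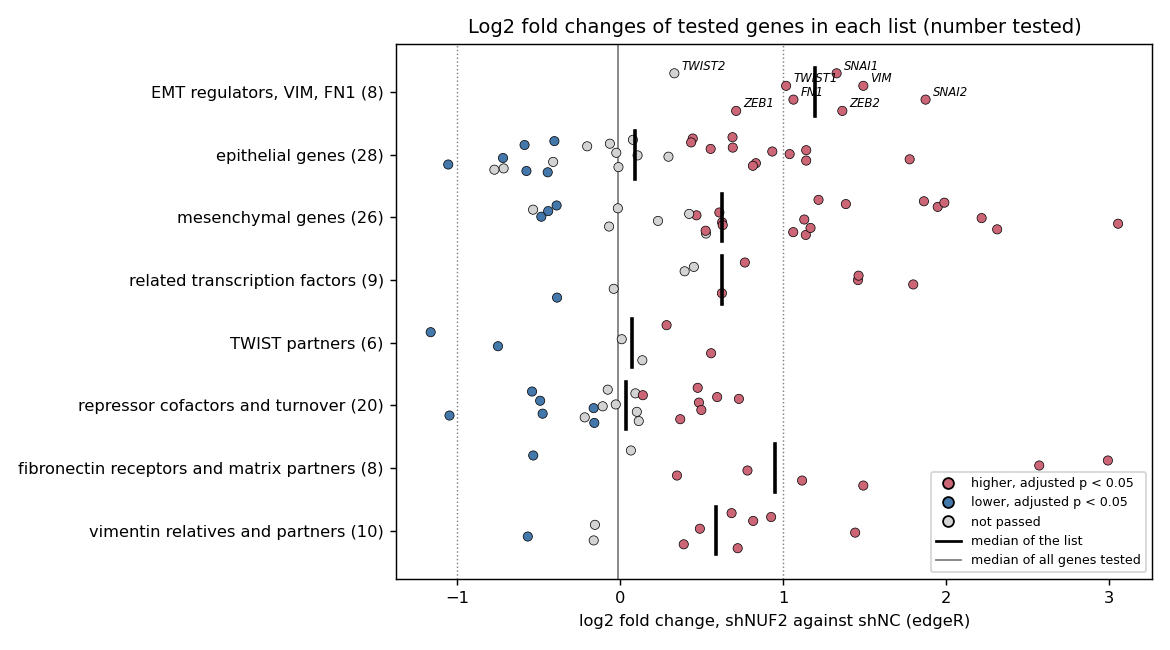
Log2 fold change between shNUF2 and shNC (edgeR) of each tested gene, by list, with the number tested in brackets, colours for the call, a black line at the median of each list, a grey line at the median of all genes tested and dotted lines at -1 and 1. The EMT regulators with VIM and FN1 have a median of 1.19, the mesenchymal genes 0.63 and the epithelial genes 0.09.

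Markers of other cell types were summed in each library. The 5 fibroblast markers COL1A1, COL3A1, LUM, DCN and PDGFRA summed to 83.4 to 89.3 CPM with shNC and 67.0 to 75.0 CPM with shNUF2, with PDGFRA at 0 in every library and 2 of the 5 at 3 reads or fewer. This sum was carried by COL1A1 (81.7 CPM with shNC, 62.4 CPM with shNUF2), while the matrix proteoglycan gene DCN rose from 3.66 to 8.48 CPM (log2 fold change 1.22, SE 0.20, edgeR adjusted p = 7.00e-06), or by 0.36 on the log2(FPKM + 1) scale. COL3A1 had 1, 0 and 2 reads across the shNC replicates, against 15, 15 and 5 with shNUF2, and was not tested. Of other genes of the mesenchymal list that fibroblasts express, FAP, SPARC and COL5A2 were also higher at low reads, while others were not. COL6A3 had 24, 29 and 28 reads across the shNC replicates, against 14, 14 and 21 with shNUF2 (log2 fold change -0.53, SE 0.34, edgeR adjusted p = 0.160). PDGFRB did not pass (log2 fold change 0.53, edgeR adjusted p = 0.227), and ACTA2 had too few reads to be tested. FAP had 5, 5 and 6 reads across the shNC replicates, against 38, 50 and 30 with shNUF2 (log2 fold change 3.05, SE 0.41, edgeR adjusted p = 2.81e-07). SPARC had 4, 5 and 1 against 15, 15 and 12 reads (2.22, SE 0.57, edgeR adjusted p = 0.00118), and COL5A2 had 8, 14 and 12 against 30, 38 and 48 reads (1.95, SE 0.34, edgeR adjusted p = 1.67e-05). The increases of FAP, SPARC and COL5A2 were 0.42, 0.22 and 0.32 on the log2(FPKM + 1) scale. FAP and SPARC passed the filter on low counts only through the shNUF2 libraries, so being tested was not independent of their increase. The 11 blood and endothelial markers summed to 3.07 to 4.42 CPM with shNC and 7.25 to 9.39 CPM with shNUF2, with 3 of the 11 at 3 reads or fewer in every library and none of the 11 at 0 throughout. The 5 epithelial markers CDH1, EPCAM, KRT8, KRT18 and KRT19 summed to 438 to 466 CPM with shNC and 826 to 887 CPM with shNUF2, mostly through KRT8 (log2 fold change 1.04, SE 0.04, edgeR adjusted p = 3.22e-17). The 9 ovarian carcinoma markers summed to 6353 to 6828 CPM with shNC and 5222 to 5529 CPM with shNUF2. Of the 6 tested, 2 rose (33.3%), ESR1 by 1.17 and PAX8 by 0.64 on the log2 scale. The other 4 fell (66.7%), with MUC16 (-0.75), MSLN (-0.75) and FOLR1 (-0.31) furthest. ESR1, PAX8 and MUC16 changed by 0.49, 0.38 and -0.36 on the log2(FPKM + 1) scale. The summed blood and endothelial level, DCN, COL3A1, FAP, SPARC, COL5A2 and the number of genes detected were higher with shNUF2, as were VIM, FN1, SNAI1, SNAI2, ZEB1, ZEB2 and TWIST1. COL1A1 and the summed fibroblast level were lower, COL6A3 and PDGFRB did not pass the test, and ACTA2 was not tested. The part of these markers, sums and the number of genes detected in the results was not tested.

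The genes with the most similar profile were taken as those with the smallest root mean square difference of mean-centred log2 CPM over the 6 libraries, among 11768 genes. For VIM these were ZBTB10 (0.033), AMPD2 (0.037) and BIRC7 (0.060). For FN1 they were FBXO33 (0.023), ADPRHL1 (0.023) and MAP3K9 (0.036). For SNAI2 they were EPB41L3 (0.049), PPP1R15A (0.082) and EMP1 (0.088). All 6 libraries of a profile share the same 2 groups, so that any gene with a like fold change and little spread scores as similar.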

How the data were processed

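RNA was sequenced in 3 shNC and 3 shNUF2 libraries of OVCAR3 cells, grouped by the sample labels. Libraries were made with a stranded mRNA kit and sequenced on a NovaSeq instrument. The submitters' processing notes name cutadapt, HISAT, HTSeq and GRCh38.p13, without versions. The authors deposited unnormalised read counts for 19973 genes, with gene positions and lengths, and FPKM values, which equal the count over deposited length and library total within a relative deviation of 2.71e-07.

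The test was that of edgeR 4.0.16 (R 4.3.3). After filterByExpr and TMM scaling, the groups were compared by the quasi-likelihood test without covariates, with Benjamini-Hochberg adjustment over 12874 genes. The SE is the log2 fold change over the square root of F. CPM are reads over the TMM-scaled library total. The second threshold, a log2 fold change beyond 1 with an unadjusted p under 0.05, takes its values from the study's methods, which name a fold change beyond 1 without a scale and were read on the log2 scale here. Ratios of FPKM were compared by exact permutation, for which 3 against 3 libraries cannot go below p = 0.10. Replicate pairs differed by a chi-square per degree of freedom of 2.65 to 4.37, so no library was a copy of another. The numbers printed per library carry counting error, and the biological coefficient of variation was 4.93%.

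The genes and lists were chosen with earlier results of these data known. Named besides the 10 genes and NUF2 are CDH1, EPCAM and CDH2, from each list the 3 largest significant increases and the 3 largest decreases at an average of at least 1 log2 CPM, and the 3 most similar profiles for VIM, FN1 and the gene with the largest change. Undetected genes, KRT8, KRT18, SYNM, DCN, COL3A1, FAP, SPARC, COL5A2, COL6A3, PDGFRB and ACTA2 were named after their values were seen. COL6A3, PDGFRB and ACTA2 were not compared in the alternatives below. Of the list of blood and endothelial markers, 4 of 11 were tested, and 2 were higher (CDH5 and TEK, at an average under 1 log2 CPM). CDH5 and TEK passed the filter only through the shNUF2 libraries, so this count was not independent of their increase.

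Alternatives were edgeR with DESeq2 size factors, library totals or upper quartile scaling, DESeq2 1.42.0, no filter on low counts, at least 1 CPM in every library, the replicate number as a block, limma 3.58.1 on log2(FPKM + 1) and log2(FPKM + 0.1), and each library left out. Scripts were tested on simulated data. Exon overlaps and transcript lengths come from GENCODE on GRCh38, and sequences from RefSeq. Other calculations used Python 3.11.15, numpy 2.4.6, pandas 2.3.3 and scipy 1.17.1.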

Additional observations from a re-analysis of the deposited data

How the results depend on the processing

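Under 15 alternative settings, the 8 tested EMT genes and NUF2 kept their direction and their side of the adjusted p threshold of 0.05. Of the 21 counts and values compared, 18 stayed within 1.5 times. The number of EMT genes past the fold threshold was 3 with limma on log2(FPKM + 1). The TWIST partners that were higher ranged from 1 to 2 when a library was left out. The vimentin relatives that were lower numbered 2 with library totals only, with upper quartile scaling, without a filter on low counts and with the replicate number as a block, and 1 to 2 when a library was left out. CDH2 turned to 0.0070 with at least 1 CPM in every library and ran from -0.055 to 0.016 when a library was left out. Where no value or construction shows it, the cause was not tested. The numbers did not pair the samples, since deviations of same-numbered libraries correlated by 0.04, 0.02 and -0.05 over genes, and the replicate block changed no other count by over 1.5 times. Of 61 further genes named and compared, 56 kept call and direction in every alternative in which they were tested, and the exceptions were EPCAM, ID2, SYNM, CDH2 and KRT7. CDH1, MMP9, CDH5, TEK, FAP, SPARC and COL5A2 were not tested with at least 1 CPM in every library. KRT7 (-0.22) was not called by DESeq2 or on the log2(FPKM + 0.1) scale. Of the 66 named genes that passed the test, 21 moved by over 1.5 times on the log2(FPKM + 1) scale, all to smaller values (ZEB2, TWIST1, EPCAM, MMP9, SOX9, GRHL1, LEF1, ID2, ITGB3, DES, ESR1, PAX8, MUC16, DCN, CDH5, TEK, FAP, SPARC, COL5A2, EPB41L3 and ZBTB10). Elsewhere only CDH5, TEK, FAP, SPARC and COL5A2 on the log2(FPKM + 0.1) scale and KRT7 without shNC replicate 3 (-0.14) did so. The scalings moved the median of all genes to between -0.05 and -0.0044. TWIST1, TWIST2, CDH1 and EPCAM had under 100 reads per library, and OVOL2 and GRHL2 had too few to be tested.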
